A study of Drosophila melanogaster with 6 samples.

Results

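The gustatory receptor (Gr) genes of Drosophila melanogaster are described here in chromatin profiles of the wing imaginal disc, the larval tissue that forms the adult wing and thorax. Members were all protein-coding genes whose symbol is Gr followed directly by a number in the RefSeq gene table of assembly Release 6, the assembly that dm6 names. This rule found 60 genes among the 13922 protein-coding genes on the 6 chromosome arms that carried peaks, and it used no measured value. CUT&RUN, in which an antibody guides a nuclease to cut out the chromatin around it, was done for H3K27me3, the repressive trimethyl mark that Polycomb repressive complex 2 places on histone H3. The discs carried Act5C-GAL4 and alphaTub84B-GAL80ts with either UASt-H3 K27M, a histone H3 with methionine in place of lysine 27 (the oncohistone), or UASt-H3 K27R, with arginine there (the control). Act5C-GAL4 is a ubiquitous driver, so the transgene was not limited to one region or cell type of the disc. In every group larvae were kept at 25 °C, moved to 32 °C at 44 h after egg laying, held there for 72 h and staged to 116 to 119 h, with 20 discs per replicate. Each genotype had 2 H3K27me3 libraries and 1 IgG library.

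Gustatory receptors are membrane proteins that form ligand-gated ion channels in sensory neurons. They detect sugars, bitter compounds, some pheromones and carbon dioxide, and most are expressed in small sets of neurons of the mouthparts, legs, antennae and wing margin. The adult wing margin carries taste bristles, whose precursors arise in the wing disc, while the receptors themselves are markers of mature neurons. Many Gr genes stand in tandem groups, so neighbours share a chromatin setting and are not independent of each other.

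The data are lists of intervals, not levels. One holds 1709 broad H3K27me3 peaks that the authors called in H3K27R discs, as a single list for both replicates. For each peak it gives the authors' fold enrichment, which is the signal over the peak caller's background, and a −log10 q-value, the caller's adjusted significance. The other names, by interval and strand, 148 genes that the authors list as upregulated with H3K27M, without expression values. The samples described here include no RNA library, so the tissue and comparison behind that list were not checked. Neither list holds a value per replicate, so no replicate spread can be given, library depth is unknown, and the 95% intervals below are exact (Clopper-Pearson) and cover counting error over genes only. No test was run between the Gr genes and other genes. The level of Gr RNA in these discs, and the change of H3K27me3 between genotypes, were not analysed here.

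Few Gr genes, like few protein-coding genes, overlapped called H3K27me3 in control discs. Of the 60 genes, 2 overlapped a peak by at least 1 bp, Gr63a and Gr59d, a share of 3.33% (0.406 to 11.5%). Among all protein-coding genes the share was 7.22% (1005 of 13922), which lies inside the interval for the Gr genes. Gr genes are short (median span 1397 bp, all genes 2163 bp). Among the 8136 genes whose span lay in the range of the Gr genes, 1143 to 7422 bp, 5.49% overlapped a peak. The median span of that set was 2330.5 bp, so it is not matched to the short Gr spans. The part of span length in these shares was not tested. No Gr gene had at least 50% of its span under peaks, against 4.04% of all genes. None met a strong peak, a term used here for a −log10 q-value of 10 or more, against 3.43% of all genes. A count of 0 among 60 allows a share of up to 5%, so a difference from those background shares was not detectable with this number of genes. This limit is an approximation, 3 divided by the number of genes, as are the limits given below for other counts of 0. The mean covered share of the span was 0.820% over the Gr genes, 3.57% over the genes in their span range and 4.22% over all genes. The Gr mean rests on the 2 genes with a peak, with a standard deviation of 4.83 percentage points over the 60 genes. These differences were not tested.

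Gr63a carried the larger of the 2 peaks. Gr63a (NCBI gene 38453, 3L 3894999 to 3896603 in Release 6) encodes a subunit of the carbon dioxide receptor of antennal neurons. Its peak, at 3L 3895530 to 3896086, was 557 bp wide and lay wholly inside the gene, 531 bp from one end and 517 bp from the other. It covered 34.7% of the span. The authors' fold enrichment was 2.44 and the −log10 q-value 3.43, close to the middle of the peak list, in which 54.0% of peaks had a lower fold enrichment and 32.4% were narrower. This small peak stood at the edge of a much larger block. The next peak began 1840 bp away, was 52468 bp wide with a fold enrichment of 8.91 and a −log10 q-value of 63.2, and lay over Awh, a LIM homeodomain transcription factor gene, with parts of Fie and enc. When peaks up to 5000 bp apart were merged, Gr63a fell at the end of one 54.9 kb domain with these 3 genes. Gr63a was the Gr gene nearest to a strong peak, at 1309 bp, and the next was Gr43a at 15.6 kb.

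The peak over Gr59d was among the smallest of the whole list. Gr59d (NCBI gene 117343, 2R 23103941 to 23105169) was covered over 178 bp, or 14.5% of its span. The peak (2R 23104754 to 23104931) had a fold enrichment of 1.93 and a −log10 q-value of 1.71. Only 0.410% of peaks were narrower and 3.69% had a lower fold enrichment. No other protein-coding gene lay under it, and the next peak, over CG9876, was 7975 bp away with a fold enrichment of 3.23. Its neighbour Gr59c, a bitter receptor gene in the same tandem pair, lay 1021 bp from the peak and was the nearest Gr gene without one.

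**Figure D1:**
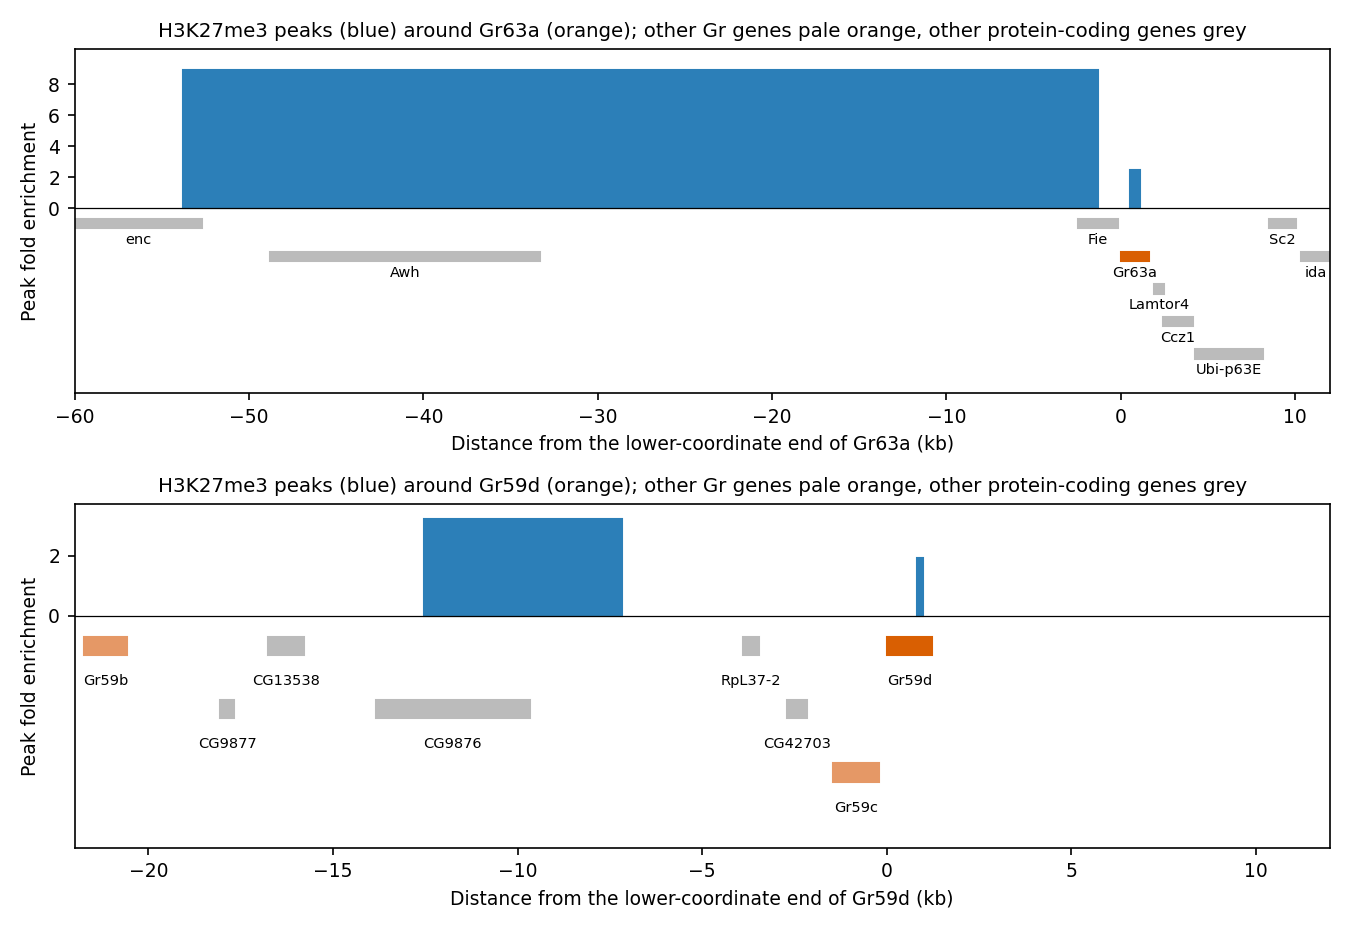
H3K27me3 peaks of H3K27R discs around the 2 Gr genes that overlap one. The x axis is the distance in kb from the lower-coordinate end of the gene, bar height is the authors' fold enrichment of each called peak and bar width the peak's extent to scale, with genes drawn underneath. The 557 bp peak in Gr63a (2.44-fold) stands beside the 52468 bp peak over Awh (8.91-fold), and the 178 bp peak in Gr59d (1.93-fold) is 7975 bp from the next, over CG9876 (3.23-fold).

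The partner of Gr63a in the carbon dioxide receptor was not in the same setting. Gr21a, whose product works together with that of Gr63a, lay on 2L and 171.5 kb from the nearest peak, while Gr63a overlapped one. Neither gene was on the upregulated list. The 8 genes of the Myb-MuvB complex, which is known in flies to restrict carbon dioxide receptor expression to the proper neurons, had no peak and were not on the list either. With 8 genes, such counts cannot be told from the shares over all protein-coding genes, 7.22% and 0.941%.

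Sugar receptor genes had no peak but held both Gr genes that the authors listed as upregulated by the oncohistone. The list held 0.941% of protein-coding genes (131 of 13922). It held 2 of the 60 Gr genes, 3.33% (0.406 to 11.5%), an interval that includes the background share. They were Gr64a (NCBI gene 117481, 3L 4026769 to 4028600), which is needed for the response to several sugars, and Gr64f (NCBI gene 117477, 3L 4035799 to 4037575), a co-receptor that works with other sugar receptors. Both were listed on the plus strand. They are the first and the last of 6 genes in a tandem run of 10.8 kb, so they are 1 locus: counted by runs of neighbouring Gr genes, 1 of 37 runs held a listed gene (2.70%). The list gives no fold change, so the size of the upregulation is unknown.

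The Gr64 genes that were listed differ from those that were not in how their annotated spans overlap. Gr64a shared no base with another protein-coding gene, and Gr64f shared 53 bp, or 2.98% of its span, with CG11593. The 4 genes between them were annotated as overlapping pairs. Gr64b and Gr64c have the same span of 3428 bp to the base. Gr64e lies wholly within Gr64d, which shares 97.8% of its span with it. The labels and files used here do not state how reads falling in 2 genes were counted, and the part of this overlap in the list was not tested. Gr64b, Gr64c, Gr64d and Gr64e being off the list therefore does not show that they did not change.

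The gene next to the run was listed as well. CG11594 (3L 4022700 to 4026011) was listed on the minus strand, so it is transcribed away from Gr64a, and the starts of these 2 listed genes were 758 bp apart. On the other side, CG11593 and Rcd5 were not listed. No peak lay inside the run, and the nearest on its far side was 34.8 kb away. Upstream of Gr64a were 3 peaks at 7060 bp, 11412 bp and 17606 bp, none of them strong. Their fold enrichments were 3.00, 2.73 and 2.01, against a median of 2.39 over all peaks. The nearest of them, 3369 bp wide with a −log10 q-value of 5.88, overlapped FoxL1, a forkhead transcription factor gene. Gr64f lay 16.1 kb from it.

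**Figure D2:**
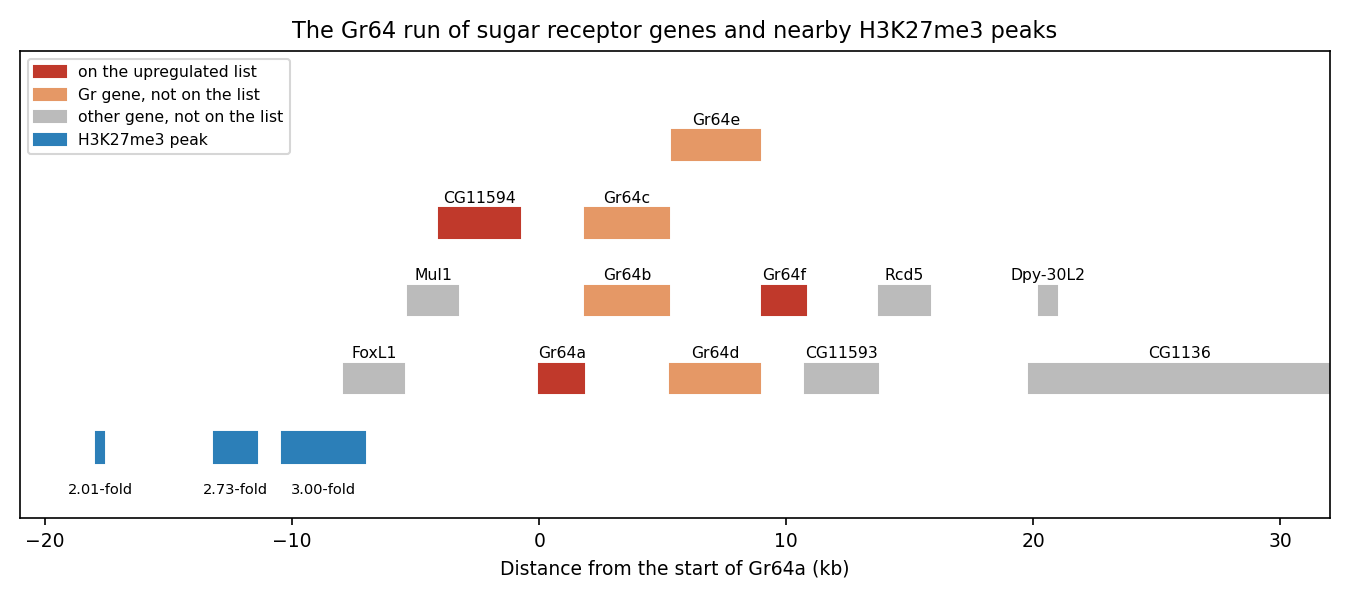
Annotated protein-coding genes and called H3K27me3 peaks around the Gr64 run, with the x axis in kb from the start of Gr64a and genes on separate rows only to keep them apart. Gr64a, Gr64f and the neighbouring CG11594 are on the upregulated list (red); the overlapping pairs Gr64b with Gr64c and Gr64d with Gr64e are not, and the nearest peak, over FoxL1, ends 7060 bp before Gr64a.

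The other 3 sugar receptor genes were not listed and had no peak. The list of 9 sugar receptor genes had a median distance to the nearest peak of 12.4 kb (7060 bp to 93.2 kb), but 6 of the 9 are the Gr64 run and share 1 nearest peak. Of the rest, Gr43a, which encodes a fructose sensor, lay 15.6 kb from a 26.1 kb peak over so, an eye determination gene, with a fold enrichment of 10.3. Gr5a, which encodes a trehalose receptor, lay 66.2 kb from a peak on the X, and Gr61a, which encodes a glucose receptor, 93.2 kb from one on 3L. With 0 of 9 genes overlapping a peak, a share of up to 33.3% is allowed.

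None of the 11 bitter receptor genes, in the 2 role lists together, had a peak or was listed as upregulated. Such a count allows a share of up to 27.3%, above the background shares of 7.22% and 0.941%, so a difference from them was not detectable. Of the 5 genes common to bitter neurons, Gr89a was nearest to a peak at 5565 bp, followed by Gr33a at 26.1 kb, Gr32a at 31.8 kb, Gr66a at 146.6 kb and Gr39a at 357.7 kb. The 6 genes with a tested bitter ligand lay between 1021 bp and 106.5 kb away. They were Gr59c, Gr98b at 25.9 kb and Gr8a at 54.7 kb (both needed to sense L-canavanine), Gr47a at 30.9 kb (strychnine), Gr93a at 105.2 kb (caffeine) and Gr22e at 106.5 kb. Gr28b, whose product serves as a warmth sensor, lay 64.1 kb away, and Gr68a, a courtship receptor gene, 129.9 kb. Of the 36 genes on none of these role lists, 1 overlapped a peak (Gr59d), and their median distance was 100.4 kb.

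Across the family the distance to H3K27me3 ranged from 0 to 397.2 kb, with a median near that of all genes when every peak was counted. The median was 67.5 kb with quartiles of 26.1 and 113.4 kb. Over all protein-coding genes the median was 67.1 kb, with quartiles of 20.0 and 150.5 kb. With strong peaks alone the medians were 141.6 kb and 199.6 kb. Within 10 kb of a peak were 10 Gr genes (16.7%), against 17.3% of all genes. These 10 were Gr63a, Gr59a, Gr59b, Gr59c, Gr59d, Gr64a, Gr64b, Gr64c, Gr2a and Gr89a. Beyond 200 kb were 5 Gr genes (8.33%), against 16.1% of all genes. They were Gr39b at 397.2 kb, Gr39a at 357.7 kb, Gr9a at 283.0 kb, Gr92a at 277.4 kb and Gr97a at 202.3 kb.

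**Figure D3:**
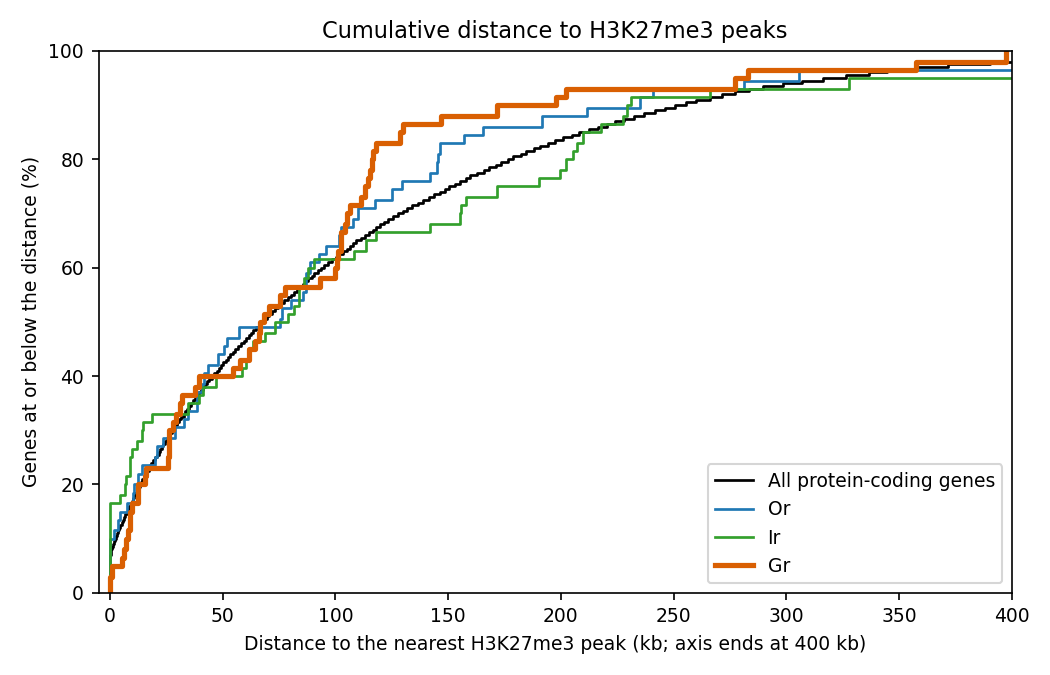
Cumulative share of genes (y axis, %) at or below a given distance to the nearest H3K27me3 peak (x axis, kb) for 60 Gr genes, 59 Or genes, 60 Ir genes and all 13922 protein-coding genes. The Gr curve starts lower at 0 kb and crosses the curve of all genes several times up to about 100 kb (medians of 67.5 and 67.1 kb). It lies above that curve over most of the range from there to its end at 397.2 kb. Tandem runs of Gr genes form steps.

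The steps in these distances come from tandem groups. The 60 genes formed 37 runs of neighbours in the order of protein-coding genes, 26 of them single genes and 11 of them groups holding 34 genes. The Gr22 group on 2L (Gr22a to Gr22e, 5 genes in 10.9 kb) lay 106.5 to 116.1 kb from a peak over chinmo. The Gr93 group on 3R (4 genes) lay 105.2 to 118.1 kb from a peak that overlapped no protein-coding gene. The Gr58 group on 2R (3 genes) lay 101.1 to 104.3 kb from a peak over Fili, and the Gr36 group on 2L (3 genes) 66.8 to 70.5 kb from one over beat-IIIc. Taking 1 value per run, that of its nearest gene, the median distance was 66.8 kb.

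The arms differed in where their Gr genes lay. On 3L, 11 Gr genes had a median distance of 12.4 kb against 63.6 kb for all genes of the arm, and on 2R, 13 Gr genes had 37.9 kb against 62.6 kb. On 2L the order was the other way: 17 Gr genes had a median of 106.5 kb against 63.3 kb, none was within 10 kb of a peak and none overlapped one. On 3R the 13 Gr genes had 75.5 kb against 69.7 kb, and on the X the 6 Gr genes had 83.5 kb against 83.2 kb. Chromosome 4 held no Gr gene. The value on 3L rests on the Gr64 run and that on 2L largely on the Gr22 group, so they are positions of a few loci.

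**Figure D4:**
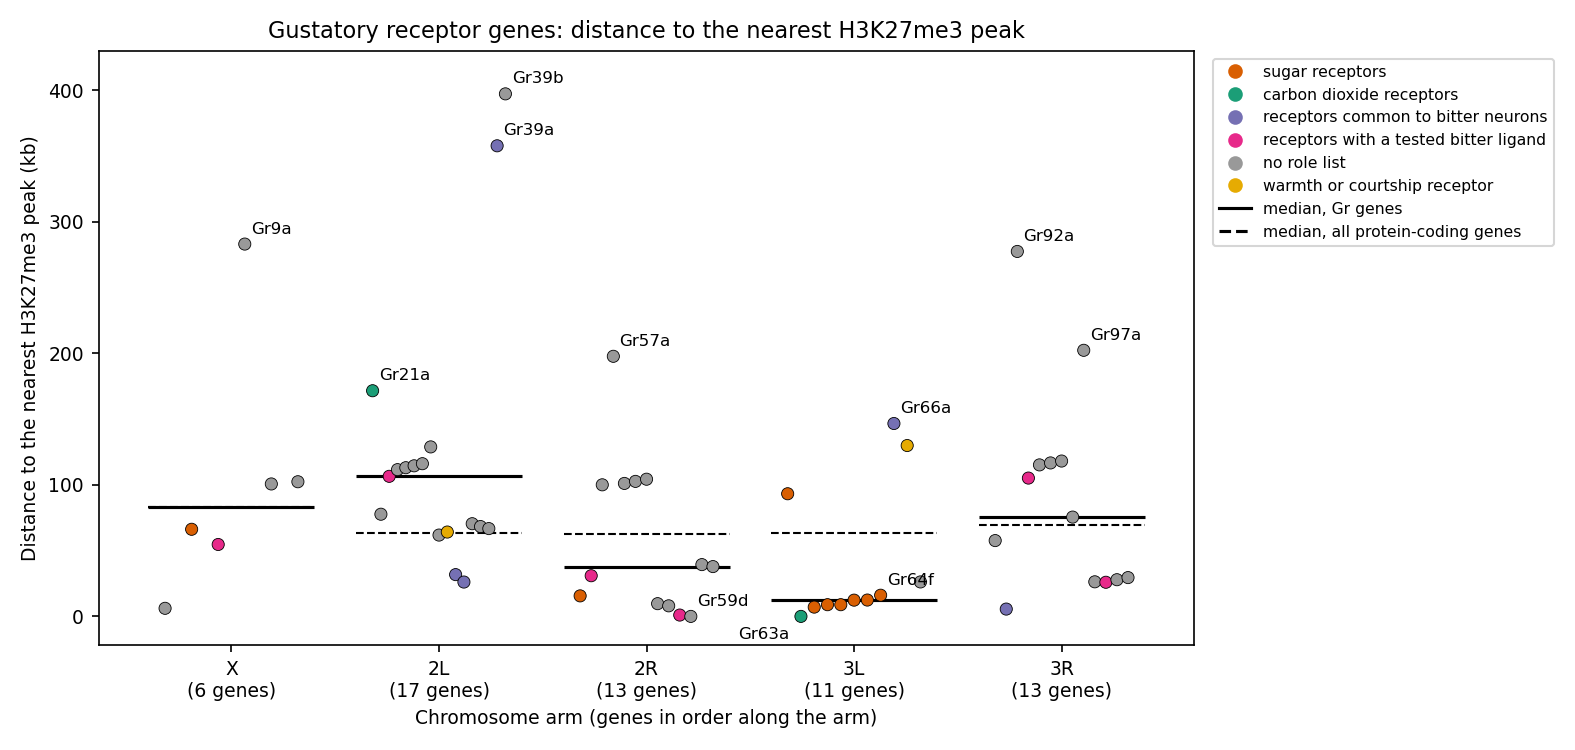
Distance of each of the 60 Gr genes to the nearest H3K27me3 peak (y axis, kb), 1 point per gene, in chromosomal order within each arm and coloured by role; solid lines are medians of the Gr genes and dashed lines medians of all protein-coding genes of the arm. Gr63a and Gr59d lie at 0 kb, the Gr64 run forms a row at 7060 bp to 16.1 kb on 3L, and Gr39b is farthest at 397.2 kb.

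For most Gr genes, as for most protein-coding genes, the nearest H3K27me3 peak was not a strong one. Of the 58 without a peak, 7 (12.1%) were nearest to a strong peak, against 2991 of the 12917 protein-coding genes without a peak (23.2%). Tandem neighbours share a nearest peak, which weighs on this share. The 60 Gr genes had 35 different nearest peaks, and 7 of these peaks were strong. The median distance to a strong peak was shorter for the Gr genes than for all genes (141.6 and 199.6 kb), a difference that was not tested. In 6 of the 7 cases the peak lay over developmental regulators. Besides so near Gr43a, these were kni for Gr77a (26.2 kb), lz for Gr8a (54.7 kb), hh for Gr94a (75.5 kb), the homeobox genes Rx, otp and hbn for Gr57a (197.7 kb) and btd with Sp1 for Gr9a (283.0 kb). For Gr47b it was E(Pc), the Enhancer of Polycomb gene, at 100.0 kb. That peak, 9269 bp wide and 6.39-fold, was 1 of 8 in a merged domain of 114.8 kb that reached 9.19-fold. The other genes of that domain are not given here. None of these peaks could reach the receptor gene, since only genes without a peak were counted. Gene names were read from the peaks after the values were seen.

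Several Gr genes lie inside larger genes. None of these Gr genes overlapped a peak, so any called peak of the host necessarily lay outside the Gr gene. In all, 16 Gr genes shared bases with another protein-coding gene. Gr2a shared 71.9% of its span with futsch, a microtubule-associated protein gene, and Gr47a lay wholly within SLO2. Both hosts overlapped a peak, over 0.433% and 0.466% of their spans, but the peaks were 6142 bp from Gr2a and 30.9 kb from Gr47a. Gr9a, Gr39a, Gr68a, Gr77a and Gr94a lay wholly within CG15312, Mondo, loaf, CG13252 and p53, none of which overlapped a peak. Gr10a has the same span as the odorant receptor gene Or10a, 3956 bp, so no interval can tell them apart.

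The other chemosensory families had more genes under peaks than the Gr family, by counts with wide intervals. Of 59 odorant receptor (Or) genes, 6 overlapped a peak (10.2%, 3.82 to 20.8%), and of 60 ionotropic receptor (Ir) genes 10 did (16.7%, 8.29 to 28.5%). Of 51 odorant binding protein (Obp) genes the count was 4 (7.84%, 2.18 to 18.9%). All these intervals overlap that of the Gr genes, and the differences were not tested. At least 50% of the span was covered in 5 Or, 8 Ir and 3 Obp genes. Or85a, for example, was covered over 100% by a peak of 15.1-fold, and Ir48b over 100% by one of 4.43-fold. On the upregulated list was 1 of these 170 genes, Ir21a, which encodes a cooling sensor.

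**Figure D5:**
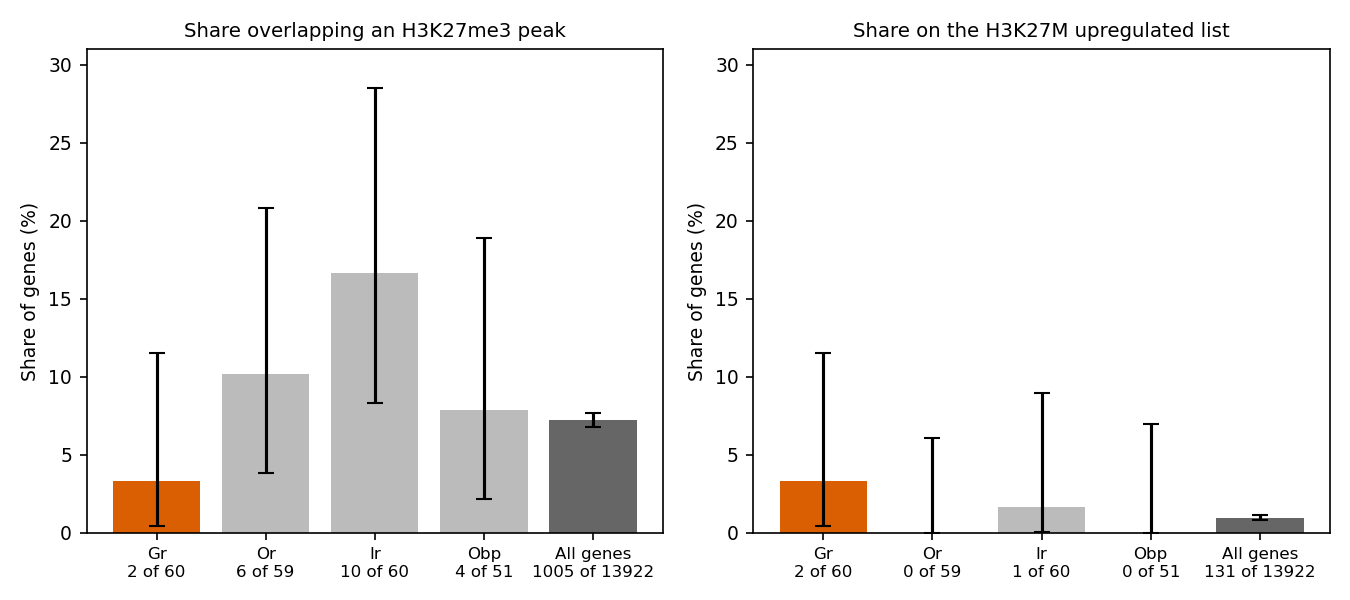
Share of genes (y axis, %) of each chemosensory family and of all protein-coding genes that overlap an H3K27me3 peak (left) or are on the H3K27M upregulated list (right), with counts under each bar and exact 95% intervals, which cover counting error only. Gr genes stand at 3.33% in both panels, below the Ir genes (16.7%) on the left and above all genes (0.941%) on the right, and their interval of 0.406 to 11.5% includes the share of all genes in both.

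In a hand-picked set of chemosensory and related genes, those under a peak were mostly factors that specify sensory neurons. The set mixes genes of taste and smell and includes the Myb-MuvB complex, so its share is not one of gustatory receptor partners alone. Of 30 partner genes on 5 lists, all found in the gene table, 5 overlapped a peak (16.7%, against 7.22% of all genes), and 4 of the 5 were chemosensory fate factors. Poxn, the paired-domain factor that turns bristles into taste bristles, was covered over 100% by a peak of 11.6-fold, and ato, a proneural factor, over 100% by one of 8.41-fold. The POU-domain factor genes pdm3 and acj6 were covered over 7.25% (3.94-fold) and 3.35% (2.20-fold), and amos had no peak. The spans of pdm3 and acj6 are long, 68791 and 28826 bp, against a median of 2163 bp over all genes. Among 10 co-receptors and other taste channels only ppk23, a pheromone-sensing channel gene, overlapped a peak (48.3%, 2.52-fold). None of the 4 odorant binding protein genes of taste and smell, and none of the 3 signalling genes norpA, trpl and Galphaq, had one, counts too small to differ detectably from 7.22%. The single partner gene on the upregulated list was ppk29, another channel gene of pheromone-sensing neurons, at 111.5 kb from a peak.

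Most Gr genes lay far from another listed gene, as did most protein-coding genes. The 6 Gr64 genes were each within 10 kb of another listed gene. Of the remaining Gr genes 3 lay within 50 kb of one, namely Gr68a at 19.3 kb from sunn, Gr66a at 22.9 kb from Dscam4 and Gr61a at 33.6 kb from CG13907. The shares of all genes within 10 and 50 kb of a listed gene were not computed, so these counts have no background beside them. The median distance from a Gr gene to another listed gene on its arm was 441.0 kb, against 359.2 kb for all protein-coding genes. Neither of the 2 listed Gr genes had a peak. Among all 131 listed protein-coding genes 15 had one (11.5%), so 0 of 2 does not set the Gr genes apart.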

How the data were processed

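CUT&RUN for H3K27me3 was done on wing discs expressing H3 K27M or H3 K27R. Per the submitters' processing notes, Bowtie2 and MACS2 were used with the build dm6; their versions, the peak threshold and the control sample were not stated there. The authors' peak list holds, per the file layout, a fold enrichment ratio, a −log10 p-value and a −log10 q-value for each peak, and a score. In 100% of the deposited peaks the score was that −log10 q-value multiplied by 10 and cut to an integer, so it was not used. The deposited list of upregulated genes holds intervals and strands only; all 148 equalled the span of exactly 1 annotated gene.

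From these, the overlap, covered share and distance of every gene span were computed with Python 3.11.15, numpy 2.4.6, pandas 2.3.3 and scipy 1.17.1, in 1-based coordinates. A distance is the difference between facing ends, 0 where they overlap. Overlap required 1 bp. The code was tested on simulated data and recovered 100% of the distances of 400 intervals. The gene table gives no strand, so gene starts were not used beyond listed genes.

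The members and lists were chosen with earlier results of these data known. Genes named are those with a peak, those listed and their run, the 5 nearest and 5 farthest, the role lists and the partner genes with a peak or a listing; other names were chosen after their values were seen.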

Additional observations from a re-analysis of the deposited data

How the results depend on the processing

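No paired analysis was possible because the peaks and the gene list are single lists over replicates, and no replicate could be left out for the same reason. The count of 2 Gr genes with a peak became 0 when 50% of the span had to be covered, 0 with strong peaks alone, 0 with either end of the span in a peak (an alternative chosen after seeing the data), and 1, Gr63a, when peaks under the median fold enrichment of 2.39 were left out; both peaks are small and lie inside their genes. It stayed at 2 within 1000 bp of a peak and with domains merged across 5000 bp. The 2 listed genes kept their count under every alternative match rule. The 2 runs with a peak kept theirs when runs were grouped by gaps of up to 10000 bp, the only alternative run for them. Peak thresholds were not varied for the runs, and each of these runs rests on 1 of the 2 small peaks. The mean covered share of 0.820% ranged from 0% with strong peaks alone to 1.37% with merged domains. The median distance of 67.5 kb ranged from 66.8 to 141.6 kb, the highest with strong peaks alone (199.6 kb for all genes). The standard deviation over the 60 genes was 84.0 kb, a spread between genes that does not measure the uncertainty of the median. Counting gene starts in peaks was not run, because the gene table gives no strand. With 60 genes, a count of 0 allows a share of up to 5%.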
